A study of Mus musculus with 12 samples.

Results

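The 31 genes described here encode the machinery that builds peroxisomes and the enzymes, transporters and membrane proteins with which they oxidise fatty acids. They were chosen as a list of names with earlier results of these data known, so counts over the list are a description only. The list holds 12 biogenesis factors (Pex2, Pex3, Pex5, Pex6, Pex7, Pex10, Pex11a, Pex13, Pex14, Pex16, Pex19 and Pex26) and 19 enzymes and membrane proteins. Each gene was read from the brightest probe set that the array annotation assigns to it alone. All 31 were bright enough to test, among 12856 tested genes. The RNA came from white adipose tissue, taken from C57/BL6 males aged 6 to 8 weeks, and was read on 12 Affymetrix expression arrays in 4 groups of 3: 1 week at 4 °C with its controls and 5 weeks at 4 °C with its controls. Mice of all 4 groups had lived at 22 °C and been adapted at 18 °C for 1 to 3 weeks, and for each array 5 µg of RNA was labelled with biotin. The titles give the controls as 30 °C and the source names as room temperature, so the control temperature is not settled, and the fat depot is not stated. Whether the 3 arrays of a group are separate mice is not stated, so p-values measure only how far these arrays differ, a spread that may be technical.

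Peroxisomes shorten fatty acids that mitochondria handle poorly, such as very long, branched and dicarboxylic chains, and they produce hydrogen peroxide in the first oxidation step, which catalase removes. Their matrix proteins are made in the cytosol, bound by the receptors Pex5 and Pex7, brought to a docking complex in the membrane and passed across it, while Pex3, Pex16 and Pex19 place proteins in the membrane itself. Peroxisomes are abundant in brown fat, where they increase in the cold, and many of their enzyme genes are known targets of the nuclear receptor PPAR alpha.

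Every level below is a GCRMA log2 signal, and every difference is cold minus control in log2 units, with its standard error (SE) and Benjamini-Hochberg adjusted p from limma's test over all 12856 genes, n = 3 arrays per group; for a gene's dimmer probe sets the adjustment is over all probe sets that passed the brightness filter. "Rose" and "fell" are used of adjusted p under 0.05. Signals of different probe sets are not comparable as amounts, so only differences are compared between genes.

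Before the results, 3 arrays and several marker lists need to be given. The array carries control probe sets at the 3 prime and 5 prime ends of Gapdh, whose log2 difference grows as RNA is degraded or copied incompletely. That difference was -0.08, 0.34 and -0.08 in the cold and 0.90, 3.00 and 3.12 in controls at 1 week, and 0.96, 0.19 and 3.01 in the cold and 0.03, -0.01 and -0.08 in controls at 5 weeks. Control arrays 2 and 3 of 1 week and cold array 3 of 5 weeks therefore stand apart, and results that rest on them are also given without all 3, a setting chosen after seeing the data. At 1 week it leaves 1 control array, whose spread is taken to be that of the other groups. For Actb the matching difference was 2.03, 1.84 and 2.80 in the cold and 1.04, 1.10 and 1.16 in controls at 5 weeks, so these groups did not overlap in it. White adipocyte markers averaged 12.16 to 12.80 on all 12 arrays, and the lowest means were those of the 3 arrays that stand apart, 12.36, 12.16 and 12.21. Single markers moved both ways: of 10 tested, 4 rose and 3 fell at 1 week, and 1 rose and 3 fell at 5 weeks. Brown and beige adipocyte markers, of which 10 of 10 rose at both times, averaged 11.73 to 12.05 in the cold and 6.84 to 7.63 in controls at 1 week, and 11.21 to 11.75 in the cold and 7.21 to 7.51 in controls at 5 weeks. Skeletal muscle markers averaged 5.36, 9.59 and 5.46 in the cold and 5.38 to 5.77 in controls at 1 week, and 5.06 to 5.24 in the cold and 7.98 to 8.23 in controls at 5 weeks. Of 10 lymphocyte markers 10 fell at both times, and of 12 macrophage markers 8 fell at 1 week and 10 at 5 weeks. Of 9 tested fibroblast markers 9 fell at 1 week and 8 at 5 weeks, with medians of -0.75 and -0.62. The part of these shifts in the results was not tested except where a value is given. In a bulk tissue, more or fewer cells of a type and more or less RNA per cell cannot be told apart.

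Most of the peroxisomal genes rose in the cold. At 1 week 25 of the 31 rose and 1 fell, while 17.9% of all tested genes rose and 31.6% fell, 49.5% in all. At 5 weeks 19 rose and 1 fell, while 15.0% of all tested genes rose and 21.2% fell, 36.2% in all. The median log2 difference of the 31 was 0.76 at 1 week and 0.47 at 5 weeks, against -0.08 and -0.03 over all tested genes. A rise of at least 2-fold was seen in 11 members at 1 week (4.04% of all genes) and in 6 at 5 weeks (2.68%). All 3 cold arrays lay above all 3 control arrays in 24 members at 1 week (26.0% of all genes) and in 23 at 5 weeks (28.3%), and below them in 1 member at 1 week (33.7%) and in 2 at 5 weeks (30.7%). When each array was centred on its own median over tested genes, the median difference of all genes became 0.14 at 1 week and 0.13 at 5 weeks. Higher calls then made up 63.9% of all calls at 1 week (36.2% as deposited) and 66.6% at 5 weeks (41.4% as deposited). Of all 12856 tested genes 4608 then rose at 1 week and 3569 at 5 weeks, against 2305 and 1925 as deposited. With centred arrays 11 biogenesis and 16 enzyme and membrane genes rose at 1 week, and 7 and 15 at 5 weeks. Called higher at both times were 3 biogenesis genes and 14 enzyme and membrane genes, while 8.58% of all genes were called higher at both times.

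Among the biogenesis genes 9 of 12 rose and 0 fell at 1 week, with a median difference of 0.71, and 4 of 12 rose and 0 fell at 5 weeks, with a median of 0.31. At an unadjusted p under 0.05 the counts were 10 higher and 0 lower at 1 week (21.2% and 35.3% of all genes), and 5 higher and 0 lower at 5 weeks (19.5% and 26.2%). Without the 3 arrays with a high Gapdh difference, 6 rose at 1 week and 7 at 5 weeks, while 8.94% and 12.8% of all genes rose. The median differences were then 0.64 at 1 week and 0.38 at 5 weeks. The median at 5 weeks was thus below that at 1 week with and without those 3 arrays. The counts without them are not comparable between the times, since 1 week keeps 1 control array.

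**Figure D1:**
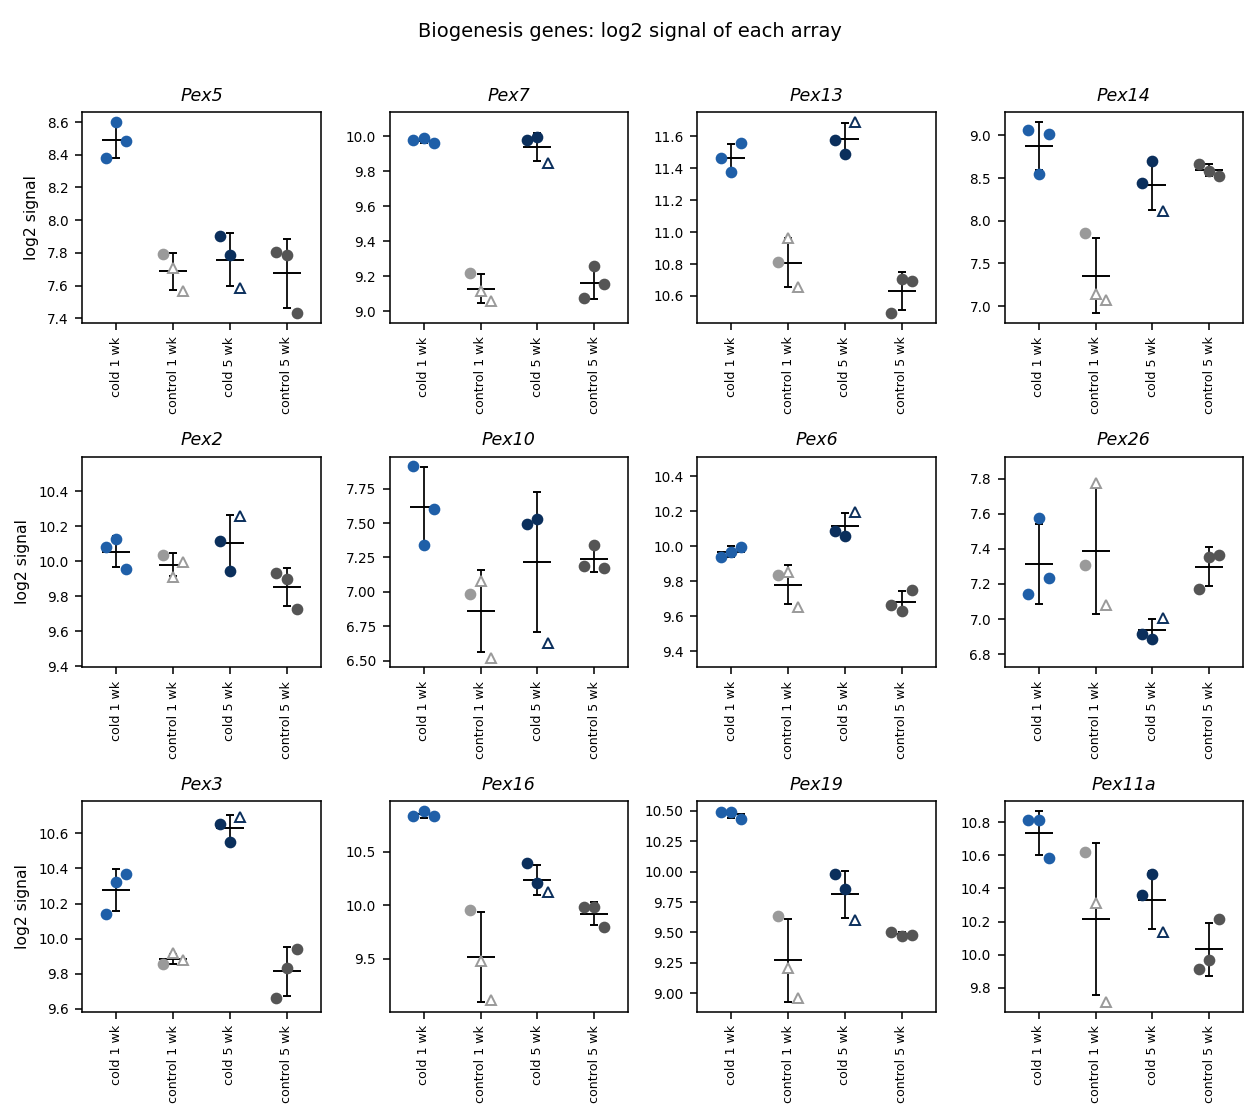
Log2 signal (vertical axis, own scale in each panel) of the 12 biogenesis genes on each array, with the cold group left of its control at 1 week and at 5 weeks. Points are single arrays, bars the mean and SD of 3, and open triangles the 3 arrays with a high Gapdh difference. Pex7 and Pex13 are separated at both times, whereas Pex14 is separated at 1 week alone, with cold arrays at 8.55 to 9.06.

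Both import receptors rose at 1 week, and 1 of them at 5 weeks. Pex7, the receptor for proteins with an amino-terminal signal, read 9.98, 9.99 and 9.96 in the cold, against 9.22, 9.12 and 9.06 in controls at 1 week and 9.98, 9.995 and 9.85 in the cold, against 9.08, 9.26 and 9.16 in controls at 5 weeks. All cold arrays lay above all control arrays, and Pex7 rose by about the same amount at both times, 0.84 (SE 0.08, adjusted p = 1.99e-05) and 0.78 (SE 0.08, adjusted p = 4.41e-05). Pex5, the receptor for the more common carboxy-terminal signal, read 8.38, 8.60 and 8.48 in the cold, against 7.79, 7.71 and 7.56 in controls at 1 week. At 5 weeks the groups overlapped, with 7.90, 7.79 and 7.58 in the cold, against 7.80, 7.79 and 7.43 in controls. Pex5 rose by 0.80 (SE 0.12, adjusted p = 3.70e-04) at 1 week, and its difference at 5 weeks was 0.08 (SE 0.12, adjusted p = 0.63).

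Of the docking complex in the peroxisomal membrane, Pex13 read 11.46, 11.38 and 11.56 in the cold, against 10.81, 10.96 and 10.65 in controls at 1 week and 11.58, 11.49 and 11.69 in the cold, against 10.49, 10.71 and 10.69 in controls at 5 weeks. The groups were separate at both times, and Pex13 rose by 0.66 (SE 0.10, adjusted p = 4.33e-04) and 0.96 (SE 0.10, adjusted p = 5.70e-05). Its partner Pex14, the docking site for the loaded receptor, read 9.06, 8.55 and 9.02 in the cold, against 7.86, 7.14 and 7.07 in controls at 1 week, a rise of 1.52 (SE 0.22, adjusted p = 2.16e-04). At 5 weeks its groups overlapped, with 8.45, 8.71 and 8.11 in the cold, against 8.67, 8.59 and 8.53 in controls, a difference of -0.17 (SE 0.22, adjusted p = 0.565). Within the controls of 1 week, arrays 2 and 3 lay lower than array 1, and without the 3 arrays the rise of Pex14 at 1 week was 1.02 (SE 0.21, adjusted p = 0.0117). The control level of Pex14 was also lower at 1 week than at 5 weeks, 7.36 ± 0.44 and 8.60 ± 0.07 (SD), and the difference between the controls was not tested.

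Among the 4 genes that recycle the receptor, 1 rose at each time on the brightest probe sets. Pex10, a ubiquitin ligase that marks the receptor for release, read 7.91, 7.34 and 7.60 in the cold, against 6.99, 7.08 and 6.52 in controls at 1 week and rose by 0.76 (SE 0.24, adjusted p = 0.0210). This call was lost without control array 3 (0.59, adjusted p = 0.0854), without cold array 1 (0.61, adjusted p = 0.0805) and without the 3 arrays (0.63, SE 0.20, adjusted p = 0.0522). At 5 weeks Pex10 overlapped between groups, with a difference of -0.02 (SE 0.24, adjusted p = 0.96). Pex2, a ligase of the same complex, differed by 0.07 (SE 0.10, adjusted p = 0.554) at 1 week and 0.25 (SE 0.10, adjusted p = 0.0690) at 5 weeks, and passed the test at 5 weeks without cold array 2 (0.33, adjusted p = 0.0319). Pex6, an ATPase that pulls the receptor back to the cytosol, differed by 0.19 (SE 0.08, adjusted p = 0.0800) at 1 week and rose by 0.43 (SE 0.08, adjusted p = 0.00208) at 5 weeks. With the mean over its probe sets these calls changed places: Pex6 rose by 0.42 (adjusted p = 0.00339) at 1 week and was not called at 5 weeks, at -0.11 (adjusted p = 0.39). Pex26, which anchors that ATPase to the membrane, had differences of -0.07 (SE 0.17, adjusted p = 0.737) and -0.36 (SE 0.17, adjusted p = 0.111), and its 3 cold arrays lay below all controls at 5 weeks.

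All 3 genes for the insertion of membrane proteins rose at 1 week. Pex16, a membrane receptor in this route, read 10.83, 10.88 and 10.83 in the cold, against 9.96, 9.48 and 9.12 in controls at 1 week, a rise of 1.33 (SE 0.17, adjusted p = 1.06e-04). Pex19, the cytosolic chaperone of membrane proteins, read 10.49, 10.49 and 10.44 in the cold, against 9.64, 9.21 and 8.97 in controls at 1 week, a rise of 1.20 (SE 0.15, adjusted p = 9.29e-05). In both genes control arrays 2 and 3 lay below control array 1, and without the 3 arrays the rises were 0.89 (SE 0.12, adjusted p = 0.00267) for Pex16 and 0.83 (SE 0.10, adjusted p = 0.00145) for Pex19. At 5 weeks the cold arrays lay above the controls in both, with 10.39, 10.21 and 10.12 in the cold, against 9.98, 9.98 and 9.80 in controls for Pex16. For Pex19 they were 9.98, 9.86 and 9.60 in the cold, against 9.51, 9.47 and 9.48 in controls at 5 weeks. Neither passed the test there with all arrays, at 0.32 (SE 0.17, adjusted p = 0.168) and 0.33 (SE 0.15, adjusted p = 0.11), and both did without the 3 arrays, at 0.38 (SE 0.10, adjusted p = 0.0209) and 0.44 (SE 0.08, adjusted p = 0.00443).

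Pex3, which docks Pex19 on the membrane, rose at both times. It read 10.14, 10.32 and 10.37 in the cold, against 9.86, 9.92 and 9.88 in controls at 1 week and 10.66, 10.55 and 10.69 in the cold, against 9.66, 9.83 and 9.94 in controls at 5 weeks. The groups were separate at both times, as Pex3 rose by 0.39 (SE 0.09, adjusted p = 0.00532) and 0.82 (SE 0.09, adjusted p = 8.49e-05). Its dimmer probe set rose too, by 0.80 (SE 0.10) and 0.62 (SE 0.10), so the order of the 2 times depended on the probe set. Without the 3 arrays the difference at 1 week was as large but no longer called, at 0.42 (SE 0.14, adjusted p = 0.0696).

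Pex11a, which elongates the membrane before peroxisomes divide, read 10.81, 10.81 and 10.58 in the cold, against 10.62, 10.31 and 9.71 in controls at 1 week, with overlapping groups. Its rise of 0.52 (SE 0.20, adjusted p = 0.0455) was lost without control array 2 (0.57, adjusted p = 0.0690) or 3 (0.27, adjusted p = 0.165), without cold array 1 (0.48, adjusted p = 0.111), 2 (0.48, adjusted p = 0.102) or 3 (0.60, adjusted p = 0.0516), and without the 3 arrays (0.12, SE 0.16, adjusted p = 0.614). At 5 weeks Pex11a differed by 0.30 (SE 0.20, adjusted p = 0.262), and it passed the test without the 3 arrays, at 0.39 (SE 0.12, adjusted p = 0.0436). Its dimmer probe set rose at 5 weeks with all arrays, by 0.63 (SE 0.19, adjusted p = 0.0244), with every cold array above every control.

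Among the enzymes and membrane proteins 16 of 19 rose and Abcd2 fell at 1 week, with a median difference of 0.82. At 5 weeks 15 of 19 rose and Pxmp2 fell, with a median of 0.67. A rise of at least 2-fold was seen in 8 of them at 1 week and in 6 at 5 weeks. Without the 3 arrays 11 rose and 0 fell at 1 week (17 of 19, and 38.8% of all genes, had an unadjusted p under 0.05), and 15 rose and 1 fell at 5 weeks.

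Promoters are shown for Acaa1b, Abcd3 and Hacl1, the 3 members whose smaller rise of both times was largest, chosen after their values were seen. The windows hold 250 bases before and 50 after the RefSeq transcription start (GRCm38.p6), printed along the gene's strand, 5′ to 3′. Capitals mark CCAAT boxes (CCAAT or its complement ATTGG) and GC boxes (GGGCGG or its complement CCGCCC) within each window.
Acaa1b, chr9:119157044-119157343, minus strand: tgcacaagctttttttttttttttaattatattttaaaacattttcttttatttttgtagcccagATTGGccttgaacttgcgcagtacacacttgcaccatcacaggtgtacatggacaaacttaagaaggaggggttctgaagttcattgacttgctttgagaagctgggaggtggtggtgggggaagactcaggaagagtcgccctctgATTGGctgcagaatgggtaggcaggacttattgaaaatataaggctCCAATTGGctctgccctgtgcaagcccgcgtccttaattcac
Abcd3, the upstream one of 2 listed starts, chr3:121815253-121815552, minus strand: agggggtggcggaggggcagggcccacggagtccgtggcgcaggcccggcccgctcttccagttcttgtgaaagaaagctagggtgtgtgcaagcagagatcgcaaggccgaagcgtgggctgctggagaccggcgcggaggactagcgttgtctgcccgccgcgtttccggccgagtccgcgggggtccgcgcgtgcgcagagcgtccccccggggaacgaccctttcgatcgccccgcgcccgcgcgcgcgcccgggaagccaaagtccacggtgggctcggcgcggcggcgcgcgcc
Hacl1, chr14:31640916-31641215, minus strand: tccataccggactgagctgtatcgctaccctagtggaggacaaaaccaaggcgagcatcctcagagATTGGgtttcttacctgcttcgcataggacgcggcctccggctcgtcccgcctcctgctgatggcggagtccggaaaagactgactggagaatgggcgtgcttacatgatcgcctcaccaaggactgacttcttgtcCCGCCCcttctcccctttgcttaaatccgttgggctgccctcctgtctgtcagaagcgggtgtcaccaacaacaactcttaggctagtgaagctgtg
The window of Acaa1b held 4 CCAAT matches, of which a pair overlaps, and 0 GC boxes, that of Abcd3 held 0 of either, and that of Hacl1 held 1 of each. Among the 25 members with a promoter in the table, 12 (48.0%) had a CCAAT match, against 42.3% of 10324 tested genes with a promoter, and 19 (76.0%) had a GC box, against 65.7%.

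PPAR alpha binds with RXR to a direct repeat of AGGTCA spaced by 1 base, and this motif was searched on both strands with up to 2 mismatches. It was found in 2 of 25 members (8.0%), against 3.70% of tested genes, and in 0 members with at most 1 mismatch, against 0.644% of all 27025 genes with a promoter. The 2 matches are shown with the bases that match the motif in capitals.
Cat, first base at -204 from the start: AGGTCAgAGaaCA
Acox2, the downstream one of 2 listed starts, chr14:8258790-8259089, minus strand, first base at 9 after that start: AGGaCAgAGGTgA
The window of the upstream Acox2 start held no match. The single half-site AGGTCA occurred in 3 of 25 members (12%), against 15.3% of tested genes. Acox2 rose at both times. At 5 weeks Cat was near its controls on its brightest probe set, while its other probe set rose by 0.43 (SE 0.10, adjusted p = 0.00640). A match describes these letters only, and windows without one say nothing of sites elsewhere.

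**Figure D2:**
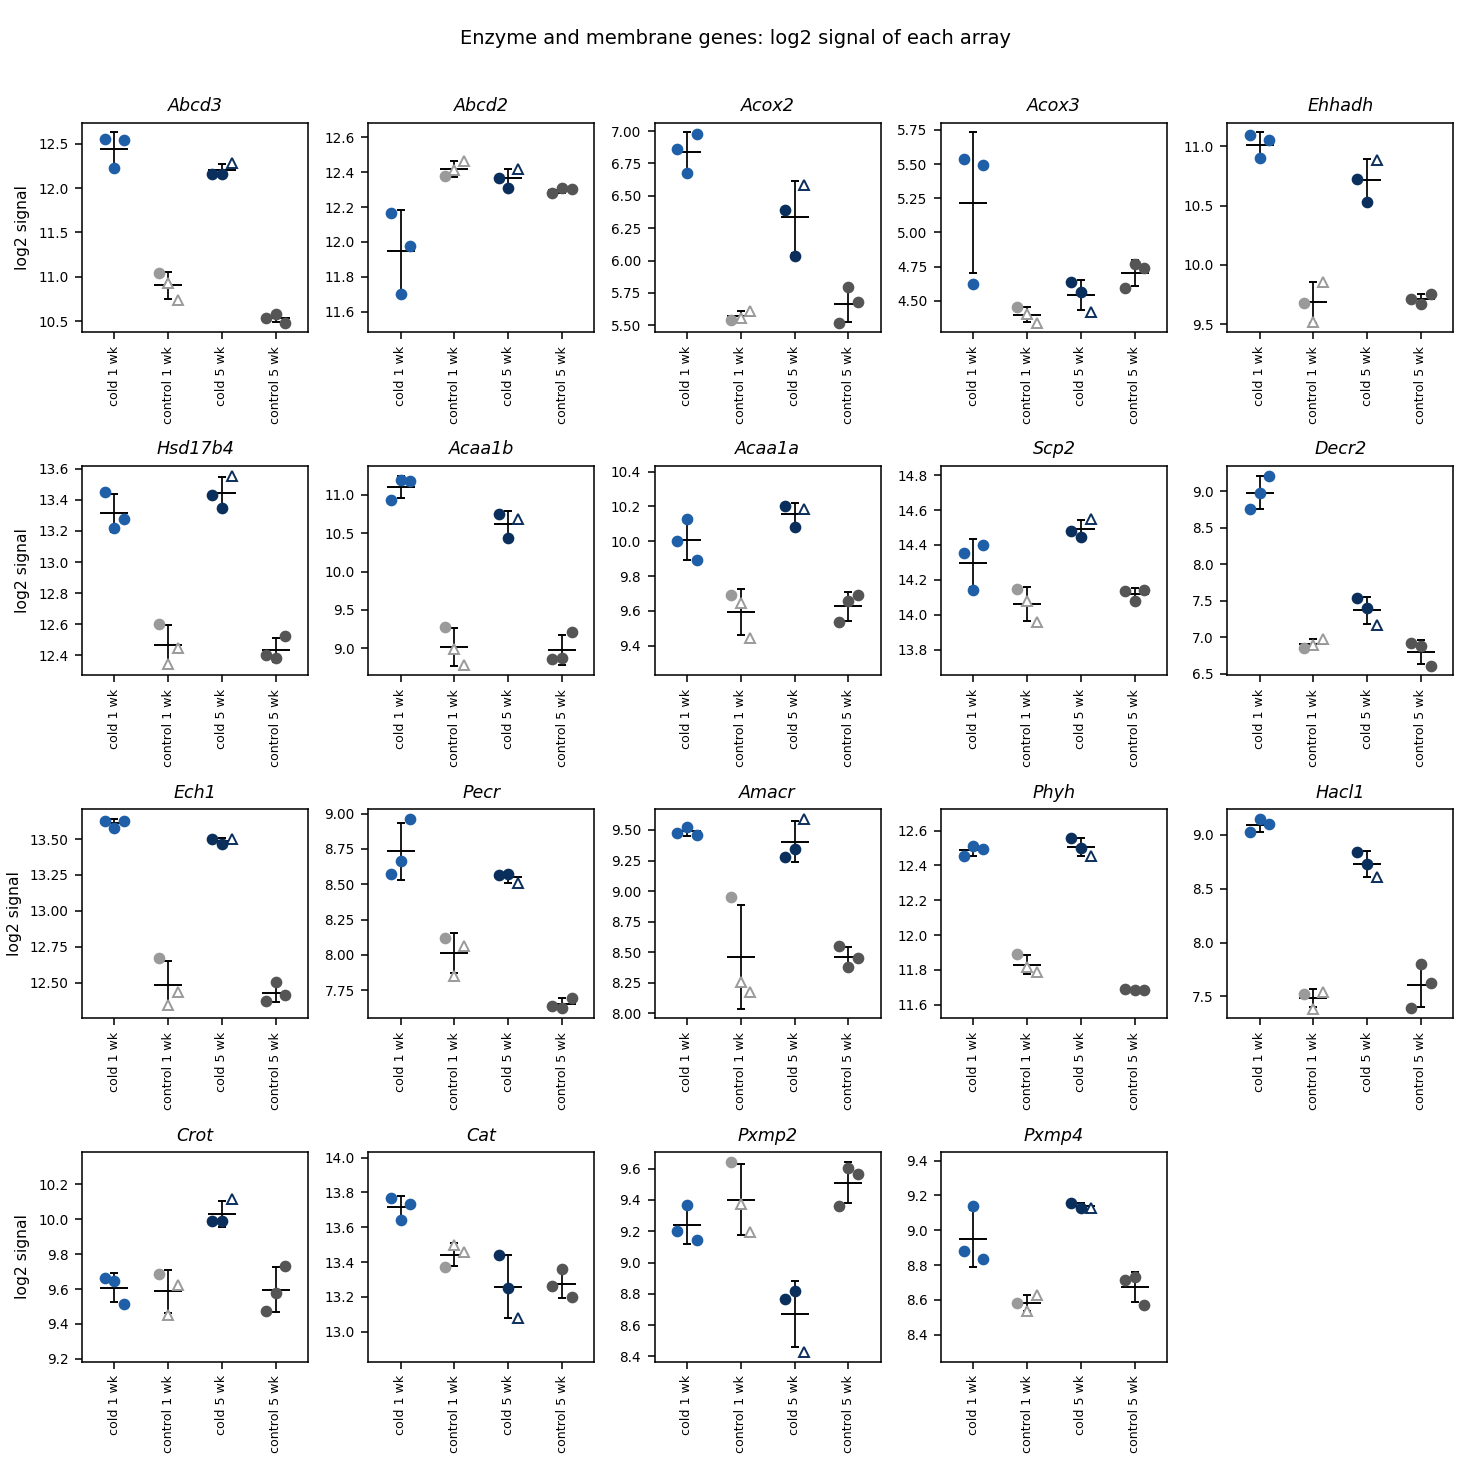
Log2 signal (vertical axis, own scale in each panel) of the 19 enzyme and membrane genes on each array, drawn as in the plot of the biogenesis genes, with open triangles for the 3 arrays with a high Gapdh difference. In Abcd3, Ech1, Hacl1 and Acaa1b the cold arrays lie far above the controls at both times, while Abcd2 at 1 week and Pxmp2 at 5 weeks lie below them.

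The 2 transporters of the ABCD family that carry fatty acyl-CoA into the peroxisome went different ways at 1 week. Abcd3, the abundant transporter for branched and dicarboxylic chains, read 12.56, 12.22 and 12.54 in the cold, against 11.04, 10.93 and 10.74 in controls at 1 week and 12.15, 12.16 and 12.29 in the cold, against 10.54, 10.58 and 10.49 in controls at 5 weeks. Abcd3 was 2.9-fold and 3.17-fold higher in the cold, at 1.53 (SE 0.11, adjusted p = 3.03e-06) and 1.66 (SE 0.11, adjusted p = 2.30e-06), with no overlap at either time. Abcd2, the transporter for very long and polyunsaturated chains, was the only member to fall at 1 week. It read 12.17, 11.70 and 11.98 in the cold, against 12.38, 12.41 and 12.47 in controls at 1 week, a difference of -0.47 (SE 0.11, adjusted p = 0.00360), which without the 3 arrays was -0.43 (SE 0.16, adjusted p = 0.0950) and with each array centred on its own median was -0.25 (adjusted p = 0.0997), not called in either. At 5 weeks Abcd2 differed by 0.07 (SE 0.11, adjusted p = 0.653).

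The first step of the peroxisomal pathway is taken by acyl-CoA oxidases. Acox2, the oxidase of branched chains and bile acid intermediates, read 6.86, 6.67 and 6.97 in the cold, against 5.54, 5.55 and 5.61 in controls at 1 week and 6.39, 6.03 and 6.58 in the cold, against 5.52, 5.79 and 5.68 in controls at 5 weeks. Acox2 rose at both times, by 1.27 (SE 0.14, adjusted p = 3.73e-05) and 0.67 (SE 0.14, adjusted p = 0.00301). Acox3, another oxidase of branched chains, read 5.53, 4.62 and 5.49 in the cold, against 4.46, 4.40 and 4.34 in controls at 1 week, where cold array 2 lay close to the controls, and its rise of 0.82 (SE 0.20, adjusted p = 0.00516) was not called without the 3 arrays, at 0.76 (SE 0.32, adjusted p = 0.121). At 5 weeks Acox3 differed by -0.16 (SE 0.20, adjusted p = 0.553). The signals of Acox3 lay near log2 4, the level of the brightness filter, and its other probe set did not pass that filter.

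The 2 bifunctional enzymes of the middle steps both rose. Ehhadh, which handles straight and dicarboxylic chains, read 11.09, 10.90 and 11.05 in the cold, against 9.67, 9.52 and 9.86 in controls at 1 week. At 5 weeks it read 10.73, 10.53 and 10.89 in the cold, against 9.71, 9.67 and 9.76 in controls. The rises of 1.33 (SE 0.11, adjusted p = 8.99e-06) and 1.00 (SE 0.11, adjusted p = 7.09e-05) left no overlap between the groups. Hsd17b4, the bifunctional enzyme for branched and very long chains, read 13.45, 13.22 and 13.28 in the cold, against 12.60, 12.34 and 12.44 in controls at 1 week and 13.43, 13.35 and 13.56 in the cold, against 12.40, 12.38 and 12.52 in controls at 5 weeks. Hsd17b4 rose by 0.85 (SE 0.10, adjusted p = 6.18e-05) and 1.01 (SE 0.10, adjusted p = 3.01e-05), and its second probe set gave 1.02 (SE 0.10) and 0.98 (SE 0.10).

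Thiolases close the cycle, and the mouse has a pair of genes for straight chains. Acaa1b read 10.94, 11.19 and 11.18 in the cold, against 9.27, 8.995 and 8.79 in controls at 1 week and 10.75, 10.44 and 10.68 in the cold, against 8.86, 8.88 and 9.21 in controls at 5 weeks. It was 4.25-fold higher at 1 week and 3.13-fold higher at 5 weeks, at 2.09 (SE 0.15, adjusted p = 2.69e-06) and 1.64 (SE 0.15, adjusted p = 1.62e-05), and without the 3 arrays 3.56-fold higher at 1 week. Its near-identical copy Acaa1a read 10.001, 10.13 and 9.89 in the cold, against 9.69, 9.64 and 9.44 in controls at 1 week and 10.20, 10.08 and 10.19 in the cold, against 9.53, 9.66 and 9.69 in controls at 5 weeks. Acaa1a rose by 0.41 (SE 0.10, adjusted p = 0.00415) and 0.53 (SE 0.10, adjusted p = 0.00149), and its difference at 1 week was not called without the 3 arrays, at 0.31 (SE 0.13, adjusted p = 0.11). Probes for either gene may read both, so their split is uncertain. Scp2, which encodes the thiolase for branched chains and a sterol carrier, read 14.35, 14.14 and 14.40 in the cold, against 14.15, 14.08 and 13.96 in controls at 1 week, with overlapping groups. Its rise of 0.24 (SE 0.09, adjusted p = 0.0459) at 1 week was lost without control array 2 (0.24, adjusted p = 0.0846) or 3 (0.18, adjusted p = 0.153), without cold array 1 (0.21, adjusted p = 0.122) or 3 (0.185, adjusted p = 0.143), and without the 3 arrays (0.15, SE 0.12, adjusted p = 0.4). The other 3 probe sets of Scp2 all rose at 1 week, with every cold array above every control, by 0.51 (SE 0.10, adjusted p = 0.00195), 0.55 (SE 0.13, adjusted p = 0.00587) and 1.02 (SE 0.27, adjusted p = 0.00988). At 5 weeks Scp2 read 14.48, 14.44 and 14.55 in the cold, against 14.13, 14.08 and 14.14 in controls and rose by 0.37 (SE 0.09, adjusted p = 0.00726).

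The auxiliary enzymes for unsaturated chains, Decr2 and Ech1, rose at both times, and so did the reductase Pecr. Decr2, which reduces dienoyl-CoA, read 8.76, 8.97 and 9.22 in the cold, against 6.86, 6.89 and 6.98 in controls at 1 week. At 5 weeks it read 7.54, 7.40 and 7.17 in the cold, against 6.92, 6.88 and 6.61 in controls, still separate from the controls but much closer to them. Decr2 was 4.21-fold higher at 1 week and 1.48-fold higher at 5 weeks, at 2.07 (SE 0.13, adjusted p = 1.72e-06) and 0.57 (SE 0.13, adjusted p = 0.00712). Ech1, which shifts double bonds in dienoyl-CoA and is shared with mitochondria, read 13.63, 13.58 and 13.63 in the cold, against 12.67, 12.35 and 12.44 in controls at 1 week and 13.50, 13.46 and 13.50 in the cold, against 12.37, 12.50 and 12.42 in controls at 5 weeks. The gaps were nearly equal, 1.13 (SE 0.09, adjusted p = 6.15e-06) and 1.06 (SE 0.09, adjusted p = 1.24e-05). Pecr, an enoyl-CoA reductase, averaged 8.73 ± 0.20 in the cold and 8.01 ± 0.14 in controls at 1 week and 8.55 ± 0.04 in the cold and 7.65 ± 0.04 in controls at 5 weeks (SD). It rose by 0.72 (SE 0.11, adjusted p = 3.02e-04) and 0.89 (SE 0.11, adjusted p = 1.20e-04), with no overlap.

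The genes that prepare methyl-branched chains such as phytanic acid rose at both times, 3 of 3. Phyh, the hydroxylase that begins alpha-oxidation, read 12.45, 12.51 and 12.49 in the cold, against 11.89, 11.82 and 11.79 in controls at 1 week and 12.56, 12.50 and 12.46 in the cold, against 11.69, 11.68 and 11.69 in controls at 5 weeks. It rose by 0.66 (SE 0.07, adjusted p = 3.48e-05) and 0.82 (SE 0.07, adjusted p = 1.24e-05). Hacl1, the lyase that follows it, read 9.03, 9.14 and 9.10 in the cold, against 7.53, 7.38 and 7.54 in controls at 1 week. At 5 weeks it read 8.85, 8.73 and 8.61 in the cold, against 7.39, 7.80 and 7.63 in controls. Hacl1 was 3.05-fold and 2.18-fold higher in the cold, at 1.61 (SE 0.11, adjusted p = 2.53e-06) and 1.12 (SE 0.11, adjusted p = 2.95e-05), with wide gaps at both times. Amacr, the racemase that turns branched chains into the form the oxidases accept, read 9.48, 9.53 and 9.46 in the cold, against 8.95, 8.26 and 8.18 in controls at 1 week and 9.27, 9.35 and 9.59 in the cold, against 8.55, 8.38 and 8.45 in controls at 5 weeks. It rose by 1.03 (SE 0.17, adjusted p = 5.98e-04) and 0.94 (SE 0.17, adjusted p = 0.00157), but control arrays 2 and 3 of 1 week lay well below control array 1, and without the 3 arrays the rise at 1 week was 0.54 (SE 0.11, adjusted p = 0.0101).

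On their brightest probe sets Cat, which encodes catalase, rose at 1 week, and Crot, the export enzyme, at 5 weeks. The difference between the times did not pass in either, at -0.29 (SE 0.14, adjusted p = 0.165) and 0.42 (SE 0.14, adjusted p = 0.0535). Cat read 13.77, 13.64 and 13.73 in the cold, against 13.37, 13.50 and 13.46 in controls at 1 week. Its rise of 0.27 (SE 0.10, adjusted p = 0.0397) was lost without control array 1 (0.24, adjusted p = 0.102), 2 (0.30, adjusted p = 0.0580) or 3 (0.28, adjusted p = 0.0767), without cold array 1 (0.24, adjusted p = 0.106) or 3 (0.26, adjusted p = 0.0869), and without the 3 arrays (0.34, SE 0.12, adjusted p = 0.0780). At 5 weeks its groups overlapped, with a difference of -0.02 (SE 0.10, adjusted p = 0.909). The other probe set of Cat differed by 0.16 (SE 0.10, adjusted p = 0.211) at 1 week and rose by 0.43 (SE 0.10, adjusted p = 0.00640) at 5 weeks. Crot, which attaches carnitine to shortened acyl chains so that they can leave for the mitochondria, overlapped at 1 week, at 0.02 (SE 0.10, adjusted p = 0.88). At 5 weeks it read 9.99, 9.99 and 10.12 in the cold, against 9.48, 9.58 and 9.73 in controls and rose by 0.44 (SE 0.10, adjusted p = 0.00497).

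Of the 2 peroxisomal membrane proteins of the Pxmp family, Pxmp2 fell at 5 weeks. Pxmp4 rose on both of its probe sets at 1 week and on 1 of the 2 at 5 weeks. Pxmp2, a channel for small metabolites, read 9.20, 9.37 and 9.14 in the cold, against 9.64, 9.37 and 9.19 in controls at 1 week, with overlapping groups and a difference of -0.17 (SE 0.14, adjusted p = 0.338). At 5 weeks it read 8.77, 8.81 and 8.43 in the cold, against 9.36, 9.61 and 9.56 in controls, with all cold arrays below all controls. Its difference of -0.84 (SE 0.14, adjusted p = 8.24e-04) was the only fall among the 31 at that time, and without the 3 arrays it was -0.72 (SE 0.11, adjusted p = 0.00213). Pxmp4 averaged 8.95 ± 0.16 in the cold and 8.58 ± 0.05 in controls at 1 week and 9.14 ± 0.02 in the cold and 8.67 ± 0.09 in controls at 5 weeks (SD). It rose by 0.37 (SE 0.09, adjusted p = 0.00626) and 0.47 (SE 0.09, adjusted p = 0.00256), and the difference at 1 week was not called without the 3 arrays, at 0.37 (SE 0.14, adjusted p = 0.0915). The dimmer probe set of Pxmp4 gave 0.66 (SE 0.12, adjusted p = 0.00162) and -0.07 (SE 0.12, adjusted p = 0.701), and with the mean over both Pxmp4 was not called at 5 weeks (0.20, adjusted p = 0.127).

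**Figure D3:**
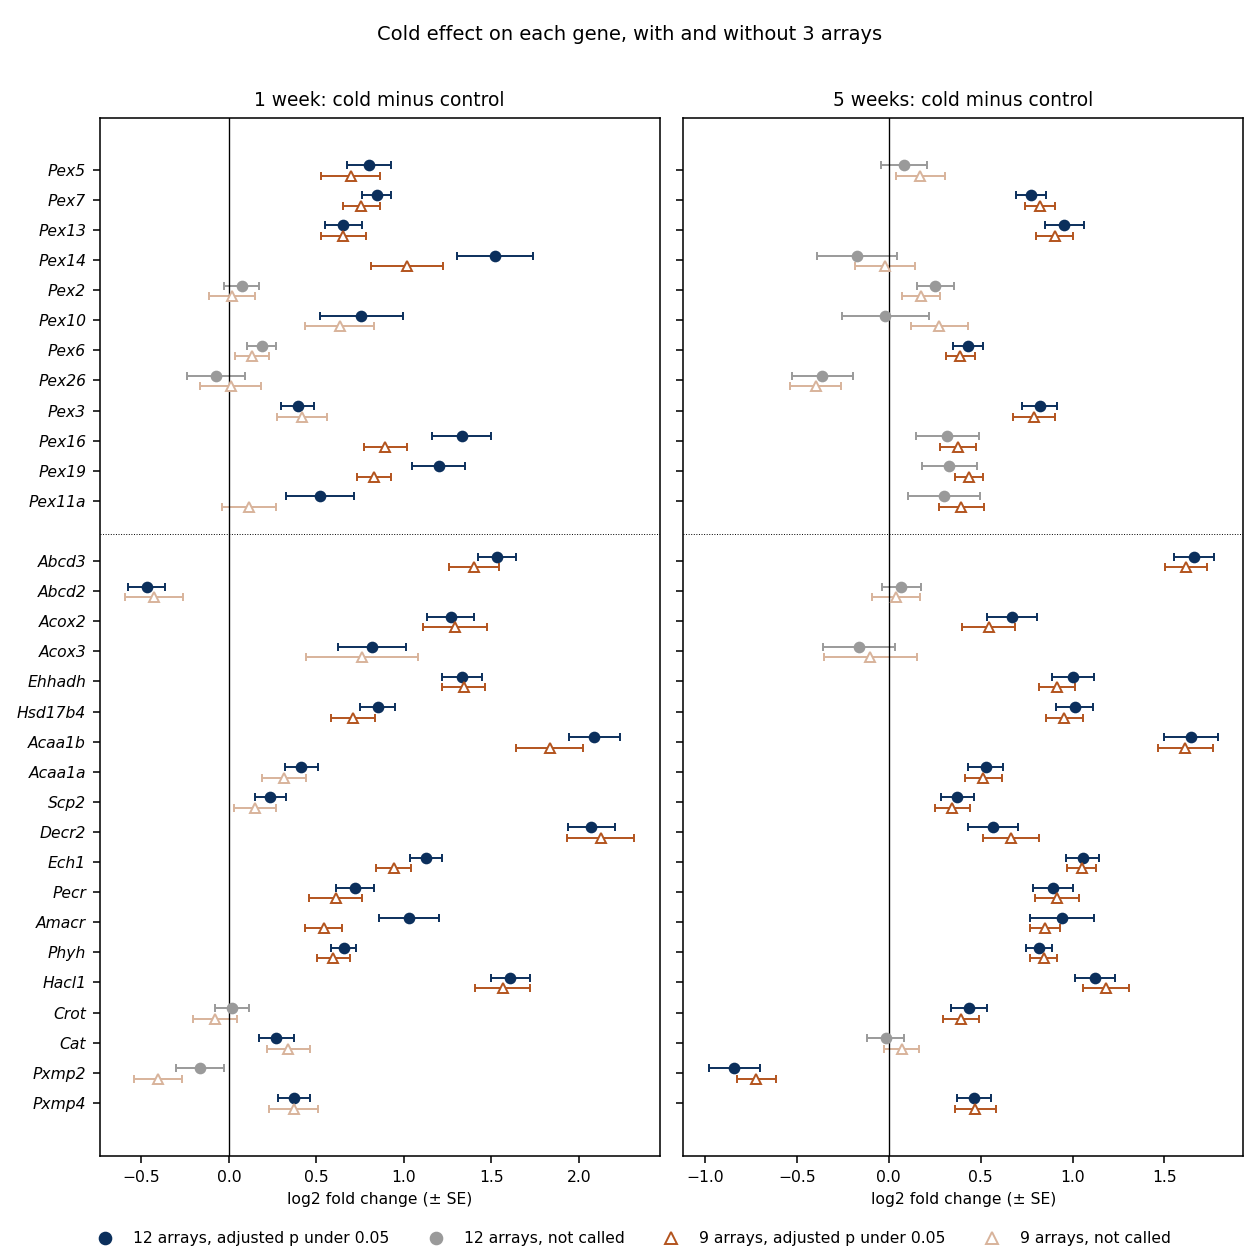
Log2 fold change of each member, cold minus control, at 1 week (left) and 5 weeks (right), with bars of 1 SE. Circles use all 12 arrays and open triangles leave out the 3 arrays with a high Gapdh difference, and pale marks did not pass the adjusted p of 0.05. The triangles of Pex14, Pex16, Pex19, Pex11a and Amacr lie below their circles at 1 week, while those of Abcd3, Ehhadh, Decr2 and Hacl1 lie close to them.

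Muscle markers and the Actb difference moved with the comparison at 5 weeks, so the counts were also fitted with each as a covariate. With the muscle marker mean, 4 biogenesis genes rose at 5 weeks, and 12 enzyme and membrane genes rose and 2 fell. Of all 12856 genes 1267 rose and 1196 fell. Acox2 (0.50, adjusted p = 0.0962), Decr2 (0.57, adjusted p = 0.0778) and Scp2 (0.21, adjusted p = 0.209) were then not called at 5 weeks. Acox3 fell in that fit, at -0.77 (adjusted p = 0.00427). With the Actb difference, a covariate added after seeing the data, 1 biogenesis gene rose and 8 enzyme and membrane genes rose and 0 fell at 5 weeks (unadjusted p under 0.05 in 3 and 10, and in 23.0% of all genes), while 485 genes rose and 310 fell. Since the Actb difference did not overlap between the groups of 5 weeks, it moved with the cold there.

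The cold effects at both times were compared by their difference, 5 weeks minus 1 week, in the same fit. It passed the test in 10 of 31 members, 2 higher and 8 lower at 5 weeks, while 11.5% of all genes were higher and 8.39% lower, 19.9% in all. The lower ones were Pex14 at -1.70 (SE 0.31, adjusted p = 0.00686), Decr2 at -1.51 (SE 0.19, adjusted p = 0.00294), Pex16 at -1.01 (SE 0.24, adjusted p = 0.0169), Acox3 at -0.98 (SE 0.28, adjusted p = 0.0320), Pex19 at -0.87 (SE 0.21, adjusted p = 0.0185), Pex5 at -0.72 (SE 0.18, adjusted p = 0.0189), Pxmp2 at -0.68 (SE 0.20, adjusted p = 0.0348) and Hacl1 at -0.49 (SE 0.16, adjusted p = 0.0483). The higher ones were Abcd2 at 0.54 (SE 0.15, adjusted p = 0.0301) and Pex3 at 0.43 (SE 0.13, adjusted p = 0.0450). Without the 3 arrays only Decr2 passed, at -1.46 (SE 0.24, adjusted p = 0.0437), and 160 of all 12856 genes did, with 8 members and 2585 genes (20.1%) at an unadjusted p under 0.05. The other 9 were not called without the 3 arrays (adjusted p = 0.0942 to 0.364), with SEs of 0.12 to 0.41. Their values were then -1.04 for Pex14, -0.51 for Pex16, -0.40 for Pex19, -0.53 for Pex5, -0.31 for Pxmp2, -0.38 for Hacl1, -0.86 for Acox3, 0.47 for Abcd2 and 0.37 for Pex3. Pex16, Pex19 and Pxmp2 were thus much closer to 0 than with all arrays, and Acox3, Abcd2 and Pex3 were of about the same size. With the muscle marker mean as a covariate on all arrays, Abcd2 was at 0.16 and Pex3 at 0.51. Pex5, Pex16, Pex19, Pxmp2 and Hacl1 were then at -0.53, -0.94, -0.83, -0.45 and -0.39. None of these was called in that fit (adjusted p = 0.129 to 0.544). With the mean over all probe sets of a gene, Pex3 (0.12, adjusted p = 0.476) and Abcd2 (0.37, adjusted p = 0.129) were not called, and the dimmer probe set of Pex3 gave the opposite sign, -0.18 (SE 0.13, adjusted p = 0.374). Across the 31 members the effects at both times, which share no arrays, had a Pearson r of 0.56 and a Spearman rho of 0.53, and over all tested genes 0.55 and 0.53, given as a description.

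**Figure D4:**
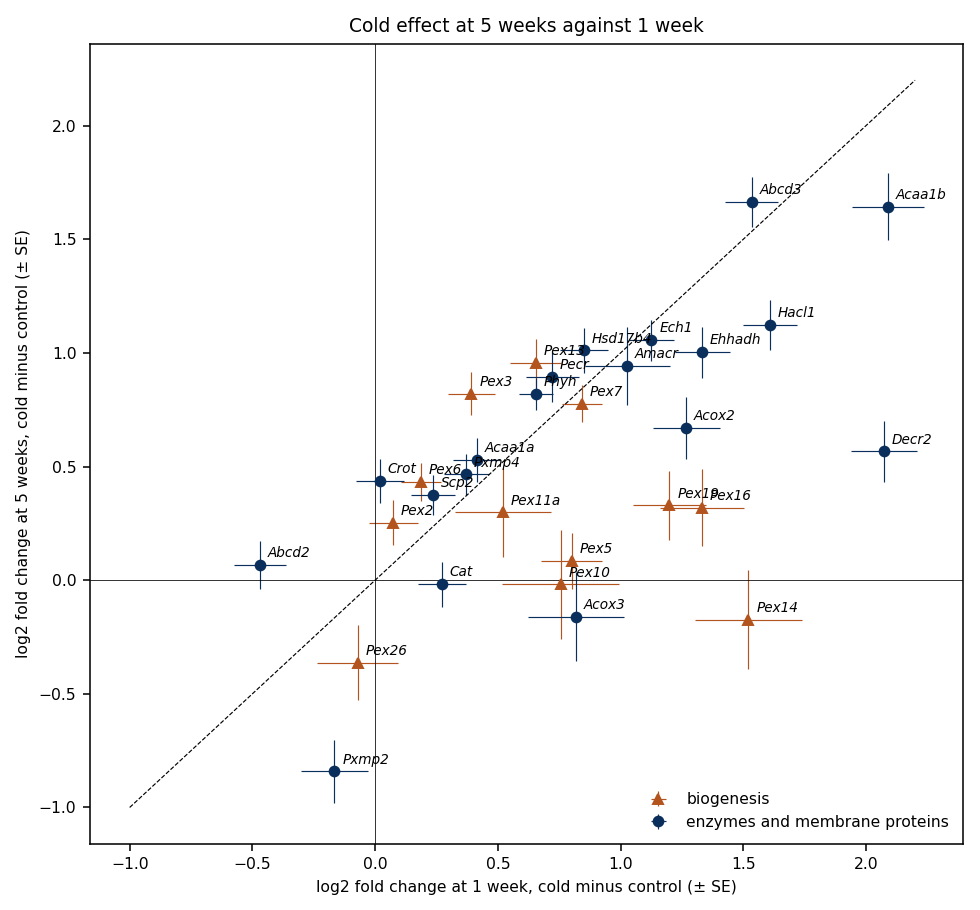
Cold effect (log2 fold change, bars 1 SE) of each member at 5 weeks (vertical axis) against 1 week (horizontal axis), with biogenesis genes as triangles, enzymes and membrane proteins as circles and the line of equal effects dashed. Abcd3, Ech1, Amacr and Pex7 lie near the line, Decr2, Pex14, Pex16 and Pex19 lie far below it, and Pxmp2 is negative at both times.

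The members were read through 57 probe sets, of which 52 passed the filter, and 14 members had more than 1 that passed. No member had probe sets called in opposite directions at either time, but their sizes differed. A dimmer probe set of Pex5 read 7.97, 7.69 and 8.43 in the cold, against 6.66, 4.77 and 5.59 in controls at 1 week and 6.80, 7.20 and 4.56 in the cold, against 7.10, 7.18 and 6.81 in controls at 5 weeks. A dimmer one of Pex19 read 10.13, 10.10 and 10.18 in the cold, against 8.95, 7.53 and 7.47 in controls at 1 week and 9.16, 9.18 and 7.69 in the cold, against 9.07, 9.02 and 9.25 in controls at 5 weeks. In both, the lowest values were those of the 3 arrays with a high Gapdh difference. In Pex6 the brightest probe set gave 0.43 (SE 0.08) at 5 weeks, while its other 4 gave -0.30 to -0.18 and none of these 4 passed the test. At 1 week 3 of these 4 rose, by 0.52 to 0.73, and Pex6 passed the test there with the mean over its probe sets (0.42, adjusted p = 0.00339). The dimmer probe set of Pex13 differed by 0.30 (SE 0.16, adjusted p = 0.151) at 1 week and rose by 1.05 (SE 0.16, adjusted p = 8.21e-04) at 5 weeks. The dimmer probe set of Pex16 rose by 0.23 (SE 0.08, adjusted p = 0.0442) at 1 week. For Scp2 the difference at 5 weeks ranged over 4 probe sets between 0.02 (SE 0.10) and 1.75 (SE 0.27). Abcd2 gave 0.07 (SE 0.11), -0.50 (SE 0.14) and 0.43 (SE 0.16) at 5 weeks, of which the second, a fall, passed (adjusted p = 0.0203).

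**Figure D5:**
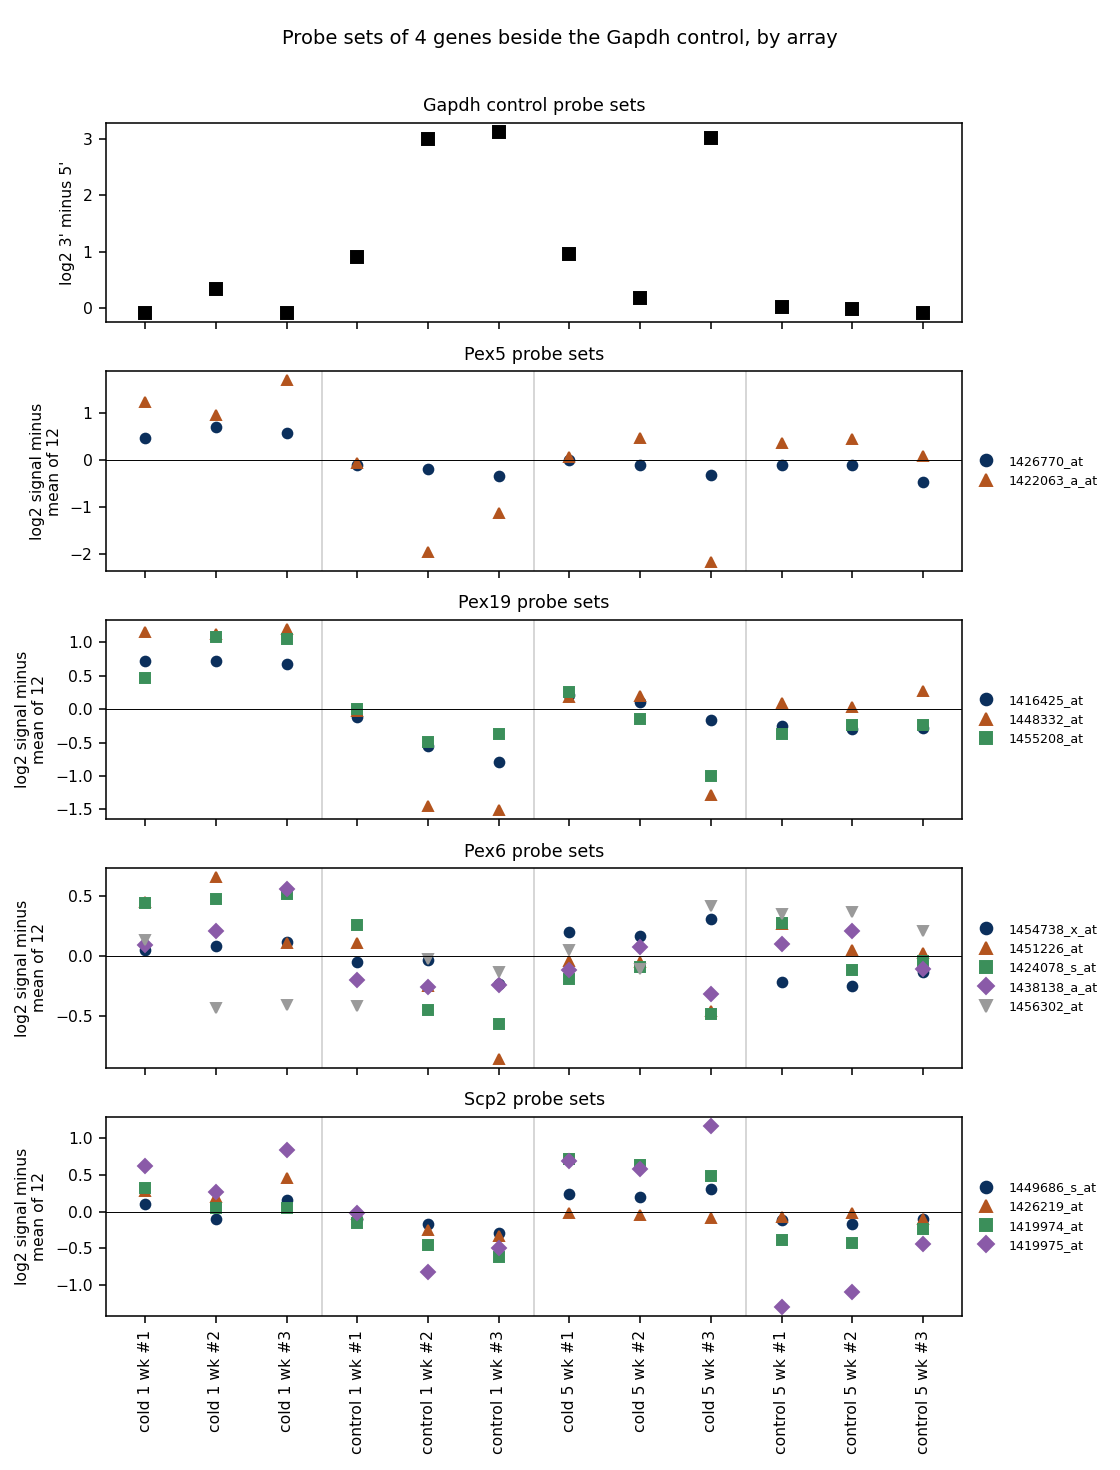
Top panel: log2 difference between the 3 prime and 5 prime Gapdh control probe sets on each array. Lower panels: log2 signal of each probe set of Pex5, Pex19, Pex6 and Scp2 minus its mean over the 12 arrays, with arrays along the horizontal axis and each cold group left of its control. A dimmer probe set each of Pex5 and Pex19 is lowest on control arrays 2 and 3 of 1 week and cold array 3 of 5 weeks, where the Gapdh difference is 3.00, 3.12 and 3.01.

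Further peroxisomal genes outside the 31 were set beside them. Of 11 tested genes of biogenesis and division, 3 rose and 0 fell at 1 week, with a median difference of 0.22. At 5 weeks 4 rose and 1 fell, with a median of 0.27. The 12 biogenesis members had medians of 0.71 and 0.31, and the difference between the lists was not tested. Of all tested genes 17.9% rose and 31.6% fell at 1 week, and 15.0% rose and 21.2% fell at 5 weeks. These shares also stand beside the further lists below. Tysnd1, a protease that trims imported enzymes, rose by 1.31 (SE 0.13, adjusted p = 2.64e-05) and 0.77 (SE 0.13, adjusted p = 0.00112), and Lonp2, the Lon protease of the peroxisome, by 0.42 (SE 0.10, adjusted p = 0.00467) and 0.29 (SE 0.10, adjusted p = 0.0423). Mff and Fis1, which recruit or bind the division machinery of mitochondria and peroxisomes, went opposite ways at 5 weeks, with Mff at 0.48 (SE 0.08, adjusted p = 0.00112) and Fis1 at -1.21 (SE 0.16, adjusted p = 1.66e-04). Fis1 read 9.21, 9.37 and 8.72 in the cold, against 10.40, 10.33 and 10.21 in controls at 5 weeks, without overlap.

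Of 24 tested further enzymes and carriers, 17 rose and 1 fell at 1 week, and 16 rose and 1 fell at 5 weeks. Slc27a2, a very long-chain acyl-CoA synthetase, read 8.53, 8.45 and 8.52 in the cold, against 4.67, 4.77 and 5.41 in controls at 1 week, a rise of 3.55 (SE 0.18, adjusted p = 4.05e-07). At 5 weeks it read 8.23, 8.69 and 8.35 in the cold, against 3.15, 3.06 and 3.05 in controls, so that with signals below log2 4 set to 4 it was at least 21.5-fold higher (adjusted p = 2.54e-08). Nudt7, which cleaves coenzyme A in peroxisomes, rose by 1.70 (SE 0.12, adjusted p = 3.03e-06) and 1.34 (SE 0.12, adjusted p = 1.84e-05). Slc25a17, a carrier of coenzyme A and other cofactors, rose by 1.80 (SE 0.13, adjusted p = 3.79e-06) and 0.80 (SE 0.13, adjusted p = 8.61e-04), and Dhrs4, a peroxisomal reductase, by 1.04 (SE 0.11, adjusted p = 3.31e-05) and 1.55 (SE 0.11, adjusted p = 3.60e-06). All of these were separate between the groups at both times.

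Of 8 regulators, 4 rose and 1 fell at 1 week, and 3 rose and 1 fell at 5 weeks. Ppara, which encodes PPAR alpha, read 8.69, 8.20 and 8.47 in the cold, against 7.18, 6.16 and 5.75 in controls at 1 week and 9.27, 9.23 and 10.45 in the cold, against 6.998, 7.18 and 7.21 in controls at 5 weeks. It rose by 2.09 (SE 0.37, adjusted p = 8.02e-04) and 2.52 (SE 0.37, adjusted p = 3.80e-04), and without the 3 arrays by 1.27 (SE 0.18, adjusted p = 0.00323) and 2.12 (SE 0.15, adjusted p = 8.35e-05). The coactivators Ppargc1a and Ppargc1b rose by 1.64 (SE 0.16) and 1.63 (SE 0.16) at 1 week and by 1.79 (SE 0.16) and 1.82 (SE 0.16) at 5 weeks. Pparg, the regulator of fat cell formation, fell by a small amount at 1 week, at -0.27 (SE 0.07, adjusted p = 0.0101), and differed by -0.08 (SE 0.07, adjusted p = 0.442) at 5 weeks. Rxrb, a partner of the PPARs, rose at 1 week, at 0.35 (SE 0.09, adjusted p = 0.00657), and differed by 0.19 (SE 0.09, adjusted p = 0.125) at 5 weeks. Without the 3 arrays neither was called at 1 week, at -0.28 (SE 0.11, adjusted p = 0.0916) for Pparg and 0.21 (SE 0.12, adjusted p = 0.212) for Rxrb.

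Mitochondrial fatty acid oxidation is the pathway that receives the shortened chains. Of its 17 tested genes 16 rose and 0 fell at 1 week, with a median difference of 1.64, and 14 rose and 0 fell at 5 weeks, with a median of 1.22. The smallest adjusted p were those of Etfdh, which passes electrons to the respiratory chain, at 2.28 (SE 0.09) and 2.36 (SE 0.09), Slc25a20, the carnitine carrier, at 2.70 (SE 0.13) and 2.70 (SE 0.13), the thiolase Acaa2 at 2.36 (SE 0.14) and 2.07 (SE 0.14), and the isomerase Eci1 at 1.49 (SE 0.09) and 1.08 (SE 0.09), each at 1 week and 5 weeks. Beside these medians those of the peroxisomal enzymes, 0.82 and 0.67, were smaller, and the difference between the lists was not tested.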

How the data were processed

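White adipose tissue of cold-exposed and control mice was measured on 12 arrays. The authors deposited log2 signals made with GCRMA, per the submitters' processing notes, which name no version. It covered 45101 probe sets (64 controls) with 0 missing values; array medians were 4.79 to 4.89, and arrays of a group correlated at 0.991 to 0.998. Symbols came from the array annotation, updated by gene identifier: 34958 probe sets named 1 gene, 932 several and 9211 none, and only the first kind was tested. Probe sets above log2 4 on 3 or more arrays were kept; the brightest one stood for its gene (12856 of 18194). In R 4.3.3, limma 3.58.1 (lmFit on 4 group means, contrasts.fit, eBayes) gave 2-sided tests, adjusted by Benjamini-Hochberg at 0.05. On simulated data the fit was checked beforehand. Outside the 31 members, up to 4 genes of each list are named, by lowest adjusted p at either time, plus Ppara, Pparg and Ppargc1a; marker lists are given as array means. The members and lists were chosen with earlier results of these data known. Replicate numbers gave no sign of pairing: same-numbered deviations correlated at -0.03 to 0.07, and differently numbered ones at -0.09 to 0.08. With 3 arrays a group this cannot exclude pairing. Alternatives covered the filter, probe set choice, scaling, variance model, covariates, replicate block and arrays left out. The number of arrays limits the precision.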

Additional observations from a re-analysis of the deposited data

Results flagged for a closer look

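Of all tested genes 19.9% differed in their cold effect between 5 weeks and 1 week by limma's test of that difference. Among the 31 peroxisomal genes 10 did (log2, 5 weeks minus 1 week). The values were -1.70 for Pex14, -1.51 for Decr2, -1.01 for Pex16, -0.98 for Acox3, -0.87 for Pex19, -0.72 for Pex5, -0.68 for Pxmp2, -0.49 for Hacl1, 0.43 for Pex3 and 0.54 for Abcd2. Leaving out single arrays, the calls of Pex14, Pex16, Pex19 and Decr2 were kept in each of the 12 cases. Control arrays 2 and 3 of 1 week share a high Gapdh difference, so leaving out 1 of them keeps the other. Without both, which leaves 1 control array at 1 week, the values were -1.19 for Pex14, -0.57 for Pex16 and -0.50 for Pex19. The call of Pex5 was lost without control array 1 (-0.65, adjusted p = 0.0519) or 2 (-0.66, adjusted p = 0.0521) of 5 weeks. Those of Pex3 (0.35 to 0.44), Acox3 (-1.03 to -0.82), Abcd2 (0.51 to 0.54), Pxmp2 (-0.69 to -0.55) and Hacl1 (-0.52 to -0.39) were each lost without any one of 7 to 10 arrays, where the values lay in the ranges given. With the mean over probe sets Pex3 (0.12) and Abcd2 (0.37) were not called.

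A pair of probe sets that names both Acaa1a and Acaa1b was not used in the gene tests. The first read 10.89, 11.10 and 10.82 in the cold, against 10.38, 9.86 and 9.66 in controls at 1 week, a difference of 0.97 (SE 0.22), and the other differed by 0.66 (SE 0.12). At 5 weeks their differences were -0.18 and -0.06, with overlapping groups, whereas Acaa1b and the brighter of 2 probe sets of Acaa1a rose then (the dimmer one gave 0.25, adjusted p = 0.157).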

How the results depend on the processing

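At 1 or 5 weeks 46 results of single members passed the test, and 25 of them kept their call and direction under all of their alternatives. Only Pex6 at 5 weeks changed direction, to -0.11 with the mean over all its probe sets. Its brightest probe set and its other 4 differed in sign. With the replicate block the fit called 6291 genes at 1 week, 4570 at 5 weeks and 2457 for the difference, 9 and 4 biogenesis genes, 15 and 16 enzyme and membrane genes, and 10 members for the difference; Scp2 and Cat lost their call at 1 week. Not every array correlated best with its own number.

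Counts of all genes at 1 week (6362) were 3036 with the Gapdh covariate, 2885 without control arrays 2 and 3, and 3157 without these and cold array 3 of 5 weeks. At 5 weeks (4654) they were 2463 with the muscle covariate, 1608 with the 5-week controls averaged and counted as 1, and 795 with the Actb covariate. For the difference (2552) they were 3, 782, 133, 1, 160 and 0 with the Gapdh covariate, the muscle covariate, without 2 arrays, with averaged controls, without 3 arrays and with the Actb covariate, and 1383 to 3022 without single arrays; at an unadjusted p under 0.05 in limma the Actb fit had 1004. Enzyme and membrane calls at 1 week (17) were 11 without 2 or 3 arrays, and at 5 weeks (16) 10 with averaged controls and 8 with the Actb covariate. Biogenesis calls at 5 weeks (4) were 7 with centred arrays, with only the groups compared, with the Gapdh covariate and without 2 or 3 arrays, and 1 with the Actb covariate. Pex26, a fall, was among the 7 with only the groups compared (adjusted p = 0.0138) and without 2 arrays (adjusted p = 0.0435). Member calls for the difference (10) were 0, 3 and 0 with the Gapdh, muscle and Actb covariates, and 4 to 9 without single arrays. With the Actb covariate 3 members had an unadjusted p under 0.05, against 7.81% of all genes. Member calls for the difference are not counted here in settings that leave 1 array in a group. The causes were not tested.

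Values that did not pass the test also changed direction. With the mean over probe sets these were Pex2 at 1 week (-0.24), and at 5 weeks Pex5 (-0.38), Pex19 (-0.041), Abcd2 (-0.0032) and Cat (0.21). With centred arrays they were Pex10 (0.14) and Cat (0.14) at 5 weeks and Pex26 (0.15) and Pxmp2 (0.054) at 1 week, and with quantile normalization Pex10 (0.14) and Pex26 (0.094). With the Gapdh covariate they were Pex10 (0.33), Pex14 (0.22) and Cat (0.027) at 5 weeks and Pex26 (0.056) at 1 week. With the Actb covariate at 5 weeks they were Pex2 (-0.0305), Pex10 (0.81), Pex14 (0.41), Abcd2 (-0.094) and Cat (0.23), and with the muscle covariate Abcd2 (-0.20). Without 2 or 3 arrays they were Pex26 (0.011) and Crot (-0.081) at 1 week, and without 3 arrays Pex10 (0.28) and Cat (0.071) at 5 weeks. Without single arrays the values ran over -0.038 to 0.17 for Pex5, -0.17 to 0.28 for Pex10 and -0.11 to 0.071 for Cat at 5 weeks, and -0.23 to 0.12 for Pex26 and -0.0497 to 0.069 for Crot at 1 week.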
